A study of Mus musculus with 8 samples.

Results

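Base excision repair genes were followed in mouse embryonic stem cells (ESCs) and primordial germ cell-like cells (PGCLCs) with and without Tfap2c, the gene of the transcription factor AP-2γ. The list holds 10 genes: the DNA glycosylases Ung, Tdg, Smug1, Mbd4 and Ogg1, the endonuclease Apex1, the break sensor Parp1, the scaffold Xrcc1, the ligase Lig3 and the polymerase Polb. Every probe set whose annotation names only 1 of them was used, which gave 24 of the 45101 probe sets on the array and 9 of the 18193 genes with a probe set of their own. Tdg has no value here, because all 3 of its probe sets also name its pseudogenes.

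The 8 samples form 4 groups of 2: Tfap2c-/- PGCLCs, control PGCLCs, Tfap2c-/- ESCs and control ESCs. All of them carry the Blimp1mVenus transgene, a fluorescent reporter driven by Prdm1 (Blimp1) regulatory sequence. The ESCs were derived from blastocysts with floxed Tfap2c alleles, as 2 lines that, per the paper, each gave control and knockout cells for the arrays. The Tfap2c-/- cells were made from these lines by transient transfection of a pGK-Cre plasmid. Control cells kept the floxed alleles. ESCs were grown with Lif, the MEK inhibitor PD0325901 and the GSK3 inhibitor CHIR99021. For PGCLCs, ESCs were turned into epiblast-like cells over 2 days and then cultured with BMP4, BMP8b, SCF, LIF and EGF. PGCLCs were sorted for the reporter, so that cells of either genotype had to switch the reporter on to be measured. Cell type, culture factors and sorting thus differ together between PGCLCs and ESCs and cannot be told apart. The labels call the sorted cells PGC and number the samples 1 and 2 within a group without naming a line or clone, so the p-values below measure the spread between these samples. In bulk RNA, a lower share of cells that express a gene and less RNA per cell cannot be told apart.

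In base excision repair a glycosylase removes a damaged or modified base, an endonuclease cuts the strand at the empty site, and a polymerase and a ligase fill and seal the gap. The pathway has been proposed to act in the loss of DNA methylation in germ cells, since glycosylases can remove deaminated or oxidised forms of 5-methylcytosine and leave an unmodified cytosine after repair. UNG removes uracil, SMUG1 removes uracil and 5-hydroxymethyluracil, MBD4 removes thymine or uracil mispaired at CpG sites, TDG removes formylcytosine and carboxylcytosine, and OGG1 removes 8-oxoguanine.

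Values are the authors' normalized log2 expression levels. Where a gene has several probe sets, the brightest of them on average over the 8 arrays stands for it, and a gene was called when limma gave an adjusted p under 0.05 over all 18193 genes. The array medians lay between 3.47 and 3.55. Control PGCLC sample 2 stood apart in RNA quality measures, with a 3′ minus 5′ difference of 0.95 for Gapdh and 1.67 for Actb against 0.31 to 0.52 and 1.15 to 1.35 on the other 7 arrays. Its spike-in mean of 7.91 was followed by 7.44 and 6.72 in Tfap2c-/- PGCLCs, against 5.42 to 5.91 on the remaining arrays. Tfap2c itself had 8.52 and 8.85 in Tfap2c-/- PGCLCs against 9.84 and 10.29 in control PGCLCs, with 7.28 and 6.47 in Tfap2c-/- ESCs against 7.88 and 9.14 in control ESCs. The knockout samples were thus the lower ones in both cell types, but neither difference was called (−1.38, limma adjusted p = 0.150 in PGCLCs; −1.63, adjusted p = 1 in ESCs). Whether the probe sets lie in the deleted part is not given in the sources used here. For the deletion, the paper points to genotyping by PCR and to TFAP2C protein staining of the ESC lines. Of the 7 measured primordial germ cell markers limma called 5 as higher in control PGCLCs against control ESCs, among them Dppa3 by 4.05 and Prdm1 by 1.99. Kit (0.80) and Ddx4 (−0.37) were not called, and 4.64% of all genes were called as higher there.

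The promoters of the 2 genes whose levels varied most between the groups, Ung and Smug1, are shown because the deleted gene encodes a DNA-binding factor. Promoters were taken from RefSeq (GRCm38.p6) as 250 bases before to 50 after the annotated start, which matched 9 of the 10 genes. The Ung stretch printed ends before the first annotated base of the gene. The Smug1 stretch ends just before the start used for its window, and other annotated Smug1 starts were not checked. Capitals mark a GC box (GGGCGG) or a CCAAT box on either strand.
Ung, chr5:114130185-114130365 (+ strand): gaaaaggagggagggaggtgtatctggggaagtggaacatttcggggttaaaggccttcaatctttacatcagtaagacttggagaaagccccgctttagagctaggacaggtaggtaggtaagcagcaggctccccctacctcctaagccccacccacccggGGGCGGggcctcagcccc
Smug1, chr15:103163285-103163534 (− strand): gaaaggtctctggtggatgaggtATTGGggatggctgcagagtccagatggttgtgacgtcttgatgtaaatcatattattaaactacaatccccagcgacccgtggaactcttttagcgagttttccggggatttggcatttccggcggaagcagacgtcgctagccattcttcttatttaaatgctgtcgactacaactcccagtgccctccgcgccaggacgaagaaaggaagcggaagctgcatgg

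The AP-2 motif GCCNNNGGC, searched on both strands, was found in neither of these promoter windows. It was present in 16.6% of the 32851 mouse promoters of the same length and in 2 of the 9 windows of the repair genes, Tdg and Lig3. A GC box was in 7 of the 9 windows (35.7% of all promoters) and a CCAAT box in 6 (37.4%). The 9 windows held 7 (Xrcc1) to 31 (Apex1) CpG sites, and the median over all promoters was 7. All windows but that of Xrcc1 were thus richer in CpG than the median promoter, and the part of base composition in the GC box share was not tested. The Tdg CCAAT box lies inside one of its AP-2 motifs. A match is a description of the letters and not a binding site.

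Ung, the main uracil glycosylase of replicating cells, lay at the ESC level in Tfap2c-/- PGCLCs and above it in control PGCLCs. Its level was 8.66 and 8.62 in Tfap2c-/- PGCLCs against 9.65 and 10.12 in control PGCLCs, with 8.46 and 8.96 in Tfap2c-/- ESCs against 8.76 and 8.70 in control ESCs. Both control PGCLC samples lay above the other 6 samples. Among these, the Tfap2c-/- ESC samples spanned the values of Tfap2c-/- PGCLCs and of control ESCs. Ung fell by 1.24 on the log2 scale in Tfap2c-/- PGCLCs (SE 0.20, 95% interval −1.72 to −0.77, 2.37-fold, limma adjusted p = 0.0225) and was the only repair gene of the 9 called in this comparison, where 3.09% of all genes were called. In ESCs the difference was −0.02 (95% interval −0.50 to 0.45, limma adjusted p = 1), in a comparison where limma called 0% of all genes and 455 had an unadjusted p under 0.05, none of them a repair gene of the 9.

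The difference between these knockout effects on Ung was −1.22 (SE 0.29, limma adjusted p = 0.232), so an unequal effect in the 2 cell types did not pass the test over all genes, of which 0.148% did. Control PGCLCs had more Ung than control ESCs, by 1.15 (SE 0.20, 2.22-fold, limma adjusted p = 0.0167), and Ung was again the only repair gene of the 9 called, where 8.37% of all genes were. Between Tfap2c-/- PGCLCs and Tfap2c-/- ESCs the difference was −0.07 (95% interval −0.54 to 0.40, limma adjusted p = 0.885), and 0 of the 9 genes were called against 2.32% of all genes. Ordered by group mean, Tfap2c-/- PGCLCs (8.64 ± 0.03) were followed by Tfap2c-/- ESCs (8.71 ± 0.35), control ESCs (8.73 ± 0.04) and control PGCLCs (9.88 ± 0.33) (SD, n = 2 each), and the first 3 means differed by less than the spread of the Tfap2c-/- ESC samples.

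**Figure D1:**
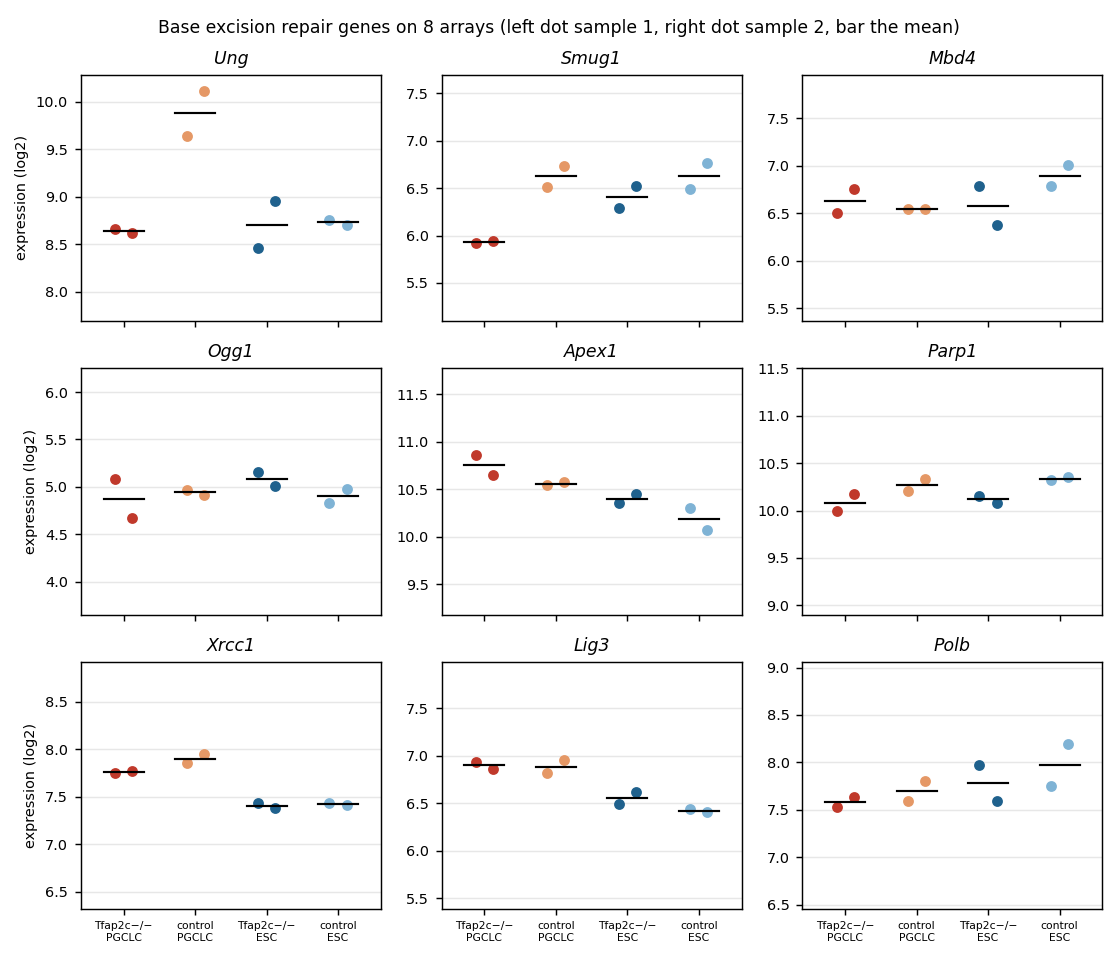
Expression level (log2) of 9 base excision repair genes in Tfap2c-/- PGCLCs, control PGCLCs, Tfap2c-/- ESCs and control ESCs, with a dot for each sample and a bar for the mean of 2. The Ung dots stand at 8.66 and 8.62 in Tfap2c-/- PGCLCs, those of control PGCLCs at 9.65 and 10.12, and Smug1 stands at 5.93 and 5.95 in Tfap2c-/- PGCLCs, below all other samples.

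The Ung call in PGCLCs rested on few samples. Without control PGCLC sample 2, the array that stood apart, the difference was −1.01 (limma adjusted p = 0.164), and without Tfap2c-/- PGCLC sample 1 or 2 the adjusted p was 0.0951 or 0.143. The call of control PGCLCs against control ESCs was likewise lost without control PGCLC sample 2 (0.92, adjusted p = 0.104) and without control ESC sample 1 (1.18, adjusted p = 0.0885) or 2 (1.12, adjusted p = 0.0893). The array has a single Ung probe set, which was designed to match several Ung transcripts, so the nuclear and mitochondrial forms that the gene is known to encode are not separated.

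Germ cell markers were, in their mean, highest in the same samples as Ung. The mean level of the 7 measured primordial germ cell markers was 6.62 and 6.40 in Tfap2c-/- PGCLCs against 7.87 and 8.22 in control PGCLCs. It was 6.15 and 5.93 in Tfap2c-/- ESCs against 6.12 and 6.69 in control ESCs. Single markers differed from Ung, which lay at the ESC level in Tfap2c-/- PGCLCs. There Prdm1 (8.08 and 8.05) and Dnd1 (7.83 and 7.18) lay above Tfap2c-/- ESCs (7.01 and 5.80, 6.38 and 5.92). Kit (6.84 and 6.94) lay below them (7.70 and 8.09). All 7 markers had negative differences between Tfap2c-/- and control PGCLCs, between −4.28 and −0.59 with a median of −0.89. Limma called 2 of them, the chromatin protein gene Dppa3 (−4.28) and the receptor gene Kit (−1.91). Of 8 ESC and naive pluripotency markers 1 was called, Klf4, which rose by 2.22, and of 4 epiblast markers 1, Pou3f1, which rose by 1.33. The medians of these lists were 0.30 and 1.29, the epiblast marker Fgf5 had −0.21, and 0 of 13 measured mesoderm, endoderm and neural markers were called. Without control PGCLC sample 2 the differences were −4.03 for Dppa3, 2.09 for Klf4 and 1.51 for Pou3f1, none of them called (limma adjusted p = 0.262, 0.0858 and 0.129), and Kit stayed called without any 1 sample. The part of these markers in the Ung difference was not tested.

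The proliferation list differed less between the groups in its mean level. This mean of 14 measured genes was 9.90 and 9.95 in Tfap2c-/- PGCLCs against 9.93 and 9.99 in control PGCLCs. In that comparison 0 of them were called, with differences between −0.32 and 0.38. Between control PGCLCs and control ESCs 1 was called as higher, Mcm7 (0.58, limma adjusted p = 0.00392), and 0 as lower. Mcm7 had 11.69 and 11.72 in Tfap2c-/- PGCLCs against 11.95 and 11.99 in control PGCLCs. That difference of −0.27 was not called (limma adjusted p = 0.0831). The part of the proliferation genes in the Ung difference was not tested. Alkbh2, a DNA repair dioxygenase gene whose annotated span overlaps Ung, had 7.05 and 6.89 in Tfap2c-/- PGCLCs against 7.82 and 7.49 in control PGCLCs. Its difference of −0.69 was not called (limma adjusted p = 0.141). The genes with the pattern most like that of Ung over the 8 arrays, among 2265 genes whose group means spanned at least 1, were Fbxo21 (Pearson r = 0.977), Iffo2 (r = 0.974) and Adgrg6 (r = 0.973), and the 8 points come from only 4 groups that share 1 normalization.

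Smug1, a second uracil glycosylase, had its lowest levels in Tfap2c-/- PGCLCs. The values were 5.93 and 5.95 in Tfap2c-/- PGCLCs against 6.51 and 6.73 in control PGCLCs, while they were 6.29 and 6.52 in Tfap2c-/- ESCs against 6.49 and 6.76 in control ESCs. Both Tfap2c-/- PGCLC samples lay below all other 6, whereas the 2 ESC groups overlapped. Over all genes, knockout and control samples were separated in either direction for 47.5% in PGCLCs and 22.7% in ESCs. A separation in PGCLCs was thus common. The difference in PGCLCs was −0.69 (SE 0.18, 95% interval −1.10 to −0.27), and it was not called over all genes (limma adjusted p = 0.0995). It was −0.23 in ESCs (95% interval −0.64 to 0.19), and the difference between the 2 effects, −0.46, was not called either (limma adjusted p = 0.689).

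Control PGCLCs and control ESCs had nearly the same Smug1 level (difference −0.01, 95% interval −0.42 to 0.41), unlike Ung. Tfap2c-/- PGCLCs lay below Tfap2c-/- ESCs, with a difference of −0.47 that was not called (limma adjusted p = 0.227). The genes most like Smug1 over the 8 arrays, among 2266 candidates, were Slco4c1 (r = 0.947), Slc16a9 (r = 0.936) and Pbk (r = 0.933).

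Mbd4 and Ogg1, the other measured glycosylases, were not called in any comparison. Mbd4 had 6.50 and 6.76 in Tfap2c-/- PGCLCs against 6.55 and 6.54 in control PGCLCs, with 6.79 and 6.37 in Tfap2c-/- ESCs against 6.79 and 7.004 in control ESCs. The knockout and control samples overlapped in both cell types, and the 3 Mbd4 probe sets gave PGCLC differences between −0.12 and 0.09. Ogg1 had 5.08 and 4.67 in Tfap2c-/- PGCLCs against 4.97 and 4.92 in control PGCLCs, with 5.16 and 5.01 in Tfap2c-/- ESCs against 4.83 and 4.98 in control ESCs. Its knockout difference was −0.07 in PGCLCs (95% interval −0.53 to 0.39) and 0.18 in ESCs (95% interval −0.28 to 0.64). The other Ogg1 probe set lay above its array's median on only 2 arrays and carries little information.

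Apex1, the endonuclease that cuts the strand after base removal, was higher in PGCLCs than in ESCs of both genotypes. It had 10.86 and 10.66 in Tfap2c-/- PGCLCs, 10.54 and 10.57 in control PGCLCs, 10.35 and 10.45 in Tfap2c-/- ESCs and 10.31 and 10.07 in control ESCs. All 4 PGCLC samples lay above all 4 ESC samples. The comparison of 4 PGCLC with 4 ESC samples over both genotypes was chosen after these values were seen, and it gave a difference of 0.36 for Apex1 (SE 0.08, 95% interval 0.17 to 0.55, limma adjusted p = 0.0270). In that comparison 4 of the 9 repair genes were called, all higher in PGCLCs, where 13.3% of all genes were called and 7.27% were higher. PGCLCs and ESCs were separated upwards in 3 of the 9 and in 8.44% of all genes.

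The 3 Apex1 probe sets gave PGCLC minus ESC differences between 0.36 and 0.47, and each was called when every probe set was tested on its own. The knockout difference of Apex1 was 0.20 in PGCLCs (95% interval −0.07 to 0.47) and 0.21 in ESCs (95% interval −0.06 to 0.48), and neither was called. On the brightest probe set the 2 knockout samples lay above the 2 control samples in both cell types. Knockout and control samples did not overlap, in either direction, for 47.5% of all genes in PGCLCs and 22.7% in ESCs. Another Apex1 probe set overlapped in ESCs (9.70 and 9.88 in knockout against 9.82 and 9.62 in control samples). The remaining one overlapped in PGCLCs (10.82 and 10.53 against 10.67 and 10.57).

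Xrcc1, the scaffold that holds the repair complex at a break, and Lig3, the ligase that binds it, showed the same order of cell types. Xrcc1 had 7.75 and 7.77 in Tfap2c-/- PGCLCs and 7.85 and 7.95 in control PGCLCs, against 7.43 and 7.38 in Tfap2c-/- ESCs and 7.43 and 7.41 in control ESCs. The 4 ESC samples spanned less than 0.1, all of them below the PGCLC samples, and the difference over both genotypes was 0.41 (SE 0.09, 95% interval 0.20 to 0.63, limma adjusted p = 0.0254). Lig3 had 6.93 and 6.86 in Tfap2c-/- PGCLCs and 6.82 and 6.95 in control PGCLCs, against 6.49 and 6.62 in Tfap2c-/- ESCs and 6.44 and 6.41 in control ESCs. Again all PGCLC samples lay above all ESC samples, with a difference of 0.41 (SE 0.11, 95% interval 0.16 to 0.65, limma adjusted p = 0.0437).

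**Figure D2:**
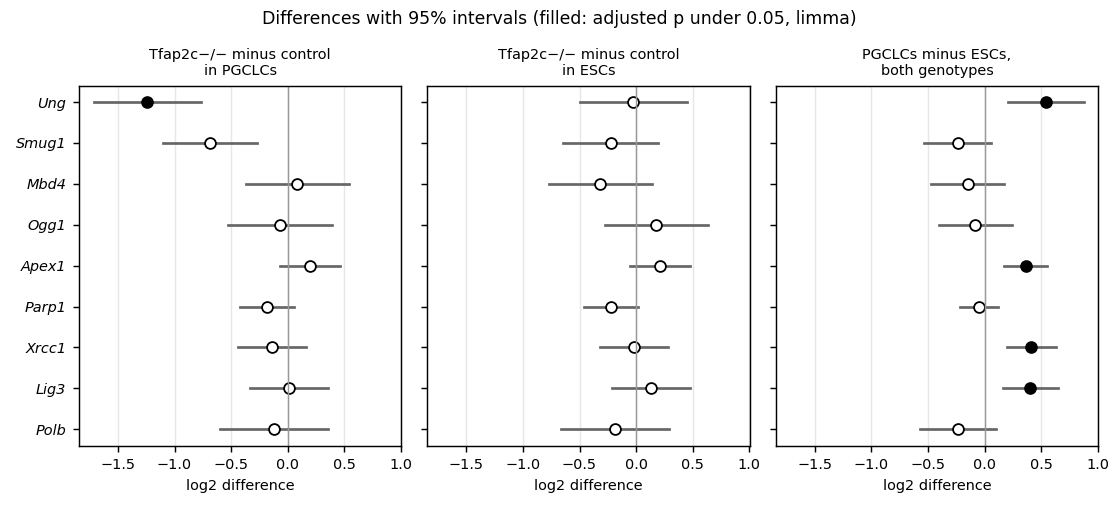
Log2 differences with 95% intervals for 9 base excision repair genes, one panel for each comparison, with filled points for genes called by limma. Ung lies at −1.24 in Tfap2c-/- against control PGCLCs and at −0.02 in Tfap2c-/- against control ESCs, while Apex1, Xrcc1 and Lig3 lie between 0.36 and 0.41 in PGCLCs against ESCs.

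Ung was the fourth gene called in this comparison (0.54, limma adjusted p = 0.0475), but its PGCLC and ESC samples overlapped and its height came from control PGCLCs. With control cells alone the differences of Apex1 (0.37), Xrcc1 (0.48) and Lig3 (0.47) were of the same size and not called (limma adjusted p = 0.0990, 0.0650 and 0.106). Between Tfap2c-/- and control PGCLCs both Xrcc1 knockout samples lay below both control samples, with a difference of −0.14 (95% interval −0.44 to 0.16), the Lig3 samples overlapped, with a difference of 0.01 (95% interval −0.34 to 0.36), and neither gene was called. The other Lig3 probe sets ran from −0.35 to 0.35 between PGCLCs and ESCs. Those at 0.35 and 0.05 exceeded the array median on all 8 arrays, that at −0.35 on 5 and that at 0.02 on 0. With the mean of the 5 probe sets, dim ones included, the Lig3 difference was 0.09 (limma adjusted p = 0.518). Leaving out any 1 sample lost the call of Lig3, leaving out any PGCLC or control ESC sample lost that of Xrcc1, and 5 of the 8 omissions lost that of Apex1. Over these omissions the difference ran between 0.37 and 0.44 for Lig3 (limma adjusted p = 0.0503 to 0.130), 0.39 and 0.44 for Xrcc1 (0.0424 to 0.0889) and 0.30 and 0.42 for Apex1 (0.0346 to 0.0905).

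Parp1, the enzyme that senses strand breaks and recruits XRCC1, had lower values in the knockout samples of both cell types on its brightest probe set. The differences were not called. It had 9.997 and 10.17 in Tfap2c-/- PGCLCs against 10.20 and 10.33 in control PGCLCs, with 10.16 and 10.08 in Tfap2c-/- ESCs against 10.32 and 10.35 in control ESCs. The genotypes did not overlap in either cell type, which held in the PGCLC comparison for 47.5% of all genes and 5 of the 9 repair genes, and in the ESC comparison for 22.7% of all genes and 4 of the 9. The differences were −0.18 in PGCLCs (95% interval −0.42 to 0.06, limma adjusted p = 0.478) and −0.22 in ESCs (95% interval −0.46 to 0.02, adjusted p = 1). The 4 Parp1 probe sets were all lower in Tfap2c-/- PGCLCs, by differences between −0.28 and −0.18. In ESCs their knockout differences ran between −0.24 and 0.29. The probe set at 0.29 overlapped there, with 3.93 and 5.95 in knockout against 5.06 and 4.25 in control samples.

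Polb, the gap-filling polymerase of short-patch repair, varied as much within groups as between them. It had 7.52 and 7.63 in Tfap2c-/- PGCLCs against 7.59 and 7.81 in control PGCLCs, with 7.98 and 7.59 in Tfap2c-/- ESCs against 7.75 and 8.20 in control ESCs. All comparisons overlapped, with knockout differences of −0.12 in PGCLCs (95% interval −0.60 to 0.35) and −0.19 in ESCs (95% interval −0.66 to 0.29). Another Polb probe set gave 0.70 in PGCLCs, but it exceeded its array's median on 1 array only.

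**Figure D3:**
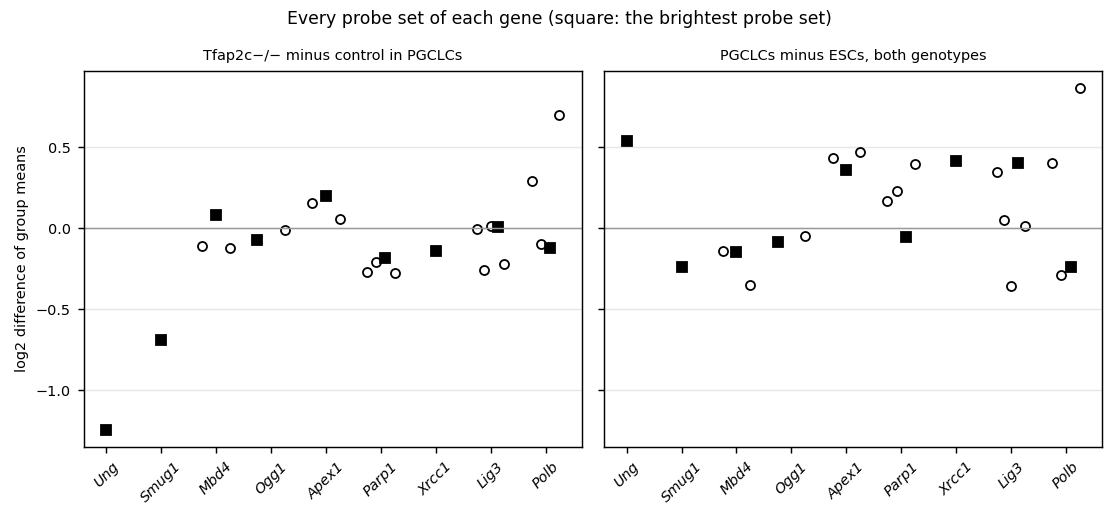
Log2 difference of group means for every probe set of each of 9 base excision repair genes, one panel for each comparison, with a square for the probe set that represents the gene. In Tfap2c-/- against control PGCLCs 16 of the 24 probe sets lie below 0 and 8 above, and the single Ung probe set lies lowest at −1.24.

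Over the 9 genes the median difference was −0.12 in Tfap2c-/- against control PGCLCs, with a median of −0.04 over all genes, and −0.02 in ESCs, with 0.00 over all genes. No repair gene passed the study's fold rule, a difference of more than 1.5 on the log2 scale, which 1.95% of all genes passed in PGCLCs. Of the 24 probe sets 20 lay above the array median on all 8 arrays.

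Other base excision repair genes gave no call. Of 24 further pathway genes 21 had a probe set of their own, and 0 of them were called in any of the 6 comparisons, with a median of −0.08 in Tfap2c-/- against control PGCLCs. Those farthest from 0 there were Aptx, which removes adenylate from stalled ligation ends (−0.64, limma adjusted p = 0.318), and Pold2, a subunit of DNA polymerase delta (0.47, adjusted p = 0.273).

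Among 10 measured genes of 5-methylcytosine oxidation, cytidine deamination and the Gadd45 family 1 was called in PGCLCs, Apobec3, a cytidine deaminase known for restricting retroviruses. Apobec3 had 6.82 and 6.96 in Tfap2c-/- PGCLCs against 5.74 and 5.57 in control PGCLCs, with 7.18 and 7.15 in Tfap2c-/- ESCs against 7.15 and 7.01 in control ESCs. The control PGCLCs were the low group and did not overlap with any other, the reverse of Ung. Apobec3 rose by 1.23 in Tfap2c-/- PGCLCs (SE 0.16, limma adjusted p = 0.00944) and had a difference of −1.42 between control PGCLCs and control ESCs (limma adjusted p = 0.00349). The first difference was not called without Tfap2c-/- PGCLC sample 2 (1.16, limma adjusted p = 0.0860), without control PGCLC sample 2 (1.15, adjusted p = 0.0878) or with only the 4 PGCLC arrays (adjusted p = 0.0556). The difference between the knockout effects, 1.14, was not called (limma adjusted p = 0.139).

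Tet2, which oxidises 5-methylcytosine, had 8.22 and 8.86 in Tfap2c-/- PGCLCs against 7.52 and 7.21 in control PGCLCs, and its difference of 1.18 was not called (limma adjusted p = 0.0625). Of 16 measured nucleotide excision and mismatch repair genes 0 were called between Tfap2c-/- and control PGCLCs. Over both genotypes 3 of these 16 were called as higher in PGCLCs against ESCs, with a median of 0.11 over the 16, the damage-binding gene Ddb1 by 0.66, the endonuclease gene Ercc4 by 0.64 and the helicase gene Ercc3 by 0.44, and 1 was called as lower, Ercc8 (−0.75). In the same comparison 2 of 14 proliferation genes were called as higher in PGCLCs, with a median of 0.05 over the 14, Mki67 by 0.57 and the replication helicase gene Mcm7 by 0.46. Without Tfap2c-/- PGCLC sample 1, Ercc3, Ercc4 and Mki67 were not called (limma adjusted p = 0.0796, 0.0617 and 0.0994), and with its probe sets averaged Ercc4 gave 0.21 (adjusted p = 0.280). The part of all these genes in the higher Apex1, Xrcc1 and Lig3 levels was not tested.

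**Figure D4:**
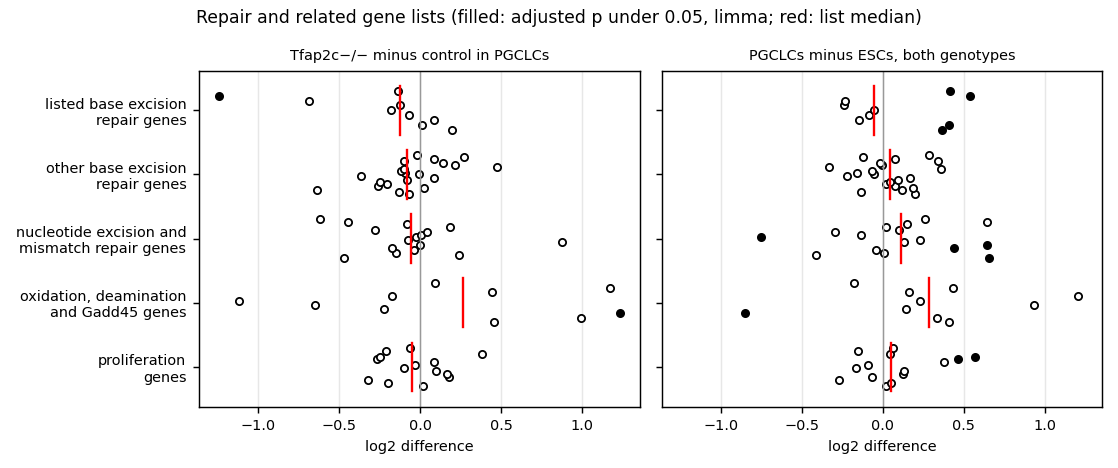
Log2 differences of single genes (dots) in 5 gene lists, one panel for each comparison, with filled dots for genes called by limma and a red mark at each list median. In Tfap2c-/- against control PGCLCs, Ung at −1.24 and Apobec3 at 1.23 are the called genes of these lists.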

How the data were processed

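RNA of 8 samples was hybridised to Affymetrix GeneChip mouse expression arrays. The deposited values are log2 expression levels normalized across arrays by the authors, with RMA named in the methods and GCRMA in the submitters' processing notes, without a version. Probe intensities were not used here, so background and scaling stayed as the authors made them. How far these compress or widen differences of dim probe sets was not tested. Precision is limited by 2 arrays a group.

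A probe set naming more than 1 gene, or no gene, was left out, as were the manufacturer's controls. The 4 group means were fitted together in limma 3.58.1 (R 4.3.3; 4 residual and 3.67 prior degrees of freedom, eBayes with trend), two-sided, with Benjamini-Hochberg adjustment over 18193 genes and a threshold of 0.05. The fit was tested on simulated data. Alternatives changed the choice of probe sets, filter, scaling, variance model, samples and replicate block. Named were the 9 genes and, from each list, up to 4 called genes or the 2 farthest from 0. Tfap2c, Alkbh2, Tet2, Fgf5 and the genes most like Ung and Smug1 were named outside this rule. Genes and lists were chosen with earlier results of these data known, and the comparison over both genotypes after its values were seen.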

Additional observations from a re-analysis of the deposited data

How the results depend on the processing

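Of 1008 differences of single repair genes under alternative settings 958 kept their side of the threshold, 48 lost a call, 2 gained one, and no called difference changed sign. In Tfap2c-/- against control PGCLCs the number of repair genes called, 1 in the report, was 0 with only the 4 PGCLC arrays (Ung adjusted p = 0.0668, limma), 0 by the fold rule of 1.5, and 0 to 1 when single samples were left out. In control PGCLCs against control ESCs it was 2 with probe sets of a gene averaged and 2 with a filter on dim genes (Ung and Xrcc1 in both), 0 by the fold rule, and 0 to 1 without single samples. Over both genotypes, 4 in the report, it was 2 with the mean of probe sets, with each probe set as a feature, without a variance trend and with arrays centred on their medians, 0 by the fold rule, and 0 to 3 without single samples. In the other 3 comparisons it was 0 throughout. The labels do not tie the replicate numbers to the 2 ESC lines, and the deviations of same-numbered samples correlated with r = 0.17 to 0.39 among Tfap2c-/- PGCLCs, control PGCLCs and Tfap2c-/- ESCs but with −0.33 to 0.07 between these and control ESCs, so whether the numbers pair the samples is not settled. With the replicate number as a block the count was 1 in Tfap2c-/- against control PGCLCs (Ung adjusted p = 0.0185, limma) and 3 over both genotypes, where Lig3 was not called. A block with the control ESC numbers crossed, chosen after seeing the data, gave 1 repair gene in Tfap2c-/- against control PGCLCs, 4 over both genotypes, and 912 called genes of all genes in the first of these, against 562 without a block and 556 with the uncrossed block. With 2 samples a group, small differences could not be resolved, and levels near the array median are at background.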
